A study of Mus musculus with 2 samples.

Results

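The genes described here are 10 that encode proteins of the lipid droplet or enzymes that build and break down triglyceride. They are the perilipins Plin2, Plin3, Plin4 and Plin5, the small lipase inhibitors Hilpda and G0s2, the lipases Pnpla2 and Lipe, and the acyltransferases Dgat1 and Dgat2. They were matched by symbol: every probe whose gene name in the scanner files equals a member's symbol was used. This gave 14 of the 56602 probes and 10 of the 37072 gene names left on both arrays after outlier-flagged spots were removed. The study compared mouse cells given an agent labelled S180 with mouse cells given DMSO, the solvent commonly used as the vehicle for small molecules. Each group was 1 sample of total RNA on 1 Agilent 1-colour whole-genome array. The labels name no cell type, strain, dose or exposure time, and do not say what S180 is. With 1 array per group no difference could be checked on replicates, and p-values are not given.

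Cells store surplus fatty acids as triglyceride in lipid droplets, whose surface is coated by perilipins. The last step of triglyceride synthesis, the addition of a fatty acid to diacylglycerol, is made by the enzymes of Dgat1 and Dgat2. Breakdown starts with adipose triglyceride lipase, the product of Pnpla2, continues with hormone-sensitive lipase, the product of Lipe, and ends with monoglyceride lipase, the product of Mgll. G0s2 and Hilpda encode small inhibitors of adipose triglyceride lipase. Hilpda and Plin2 are known targets of the hypoxia-inducible factors (HIF), and Plin2, Plin4, Plin5, Hilpda and G0s2 are known targets of the fatty acid receptors of the PPAR family.

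Of the 10 genes, 8 were measured, meaning that the scanner software marked the gene's brightest probe as well above background on both arrays. Plin5 passed on the S180 array alone and G0s2 on neither. Among the 14 probes, 9 passed on both arrays, 1 on 1 array and 4 on neither. The signals quoted are processed intensities in arbitrary units, after the scanner software's background correction, and they are not comparable between probes, since each probe binds with its own strength. The lowest signal well above background was 13.1 with S180 and 13.7 with DMSO. For differences, each array's log2 signals were set relative to its 75th percentile, which lay at a signal of 615 with S180 and 748 with DMSO. A difference is always S180 minus DMSO on this log2 scale. All 14 probes had a single spot per array, so the error of a difference was taken from other probes of like brightness. Between spots of the same probe, a difference had an SD of 0.042 (log2; 262 replicated probes) among bright genes, 0.072 among genes of middle signal (6 probes) and 0.27 among dim genes (11 probes), where bright, middle and dim are classes of equal size by signal. Between different probes of the same gene it had an SD of 0.084, 0.13 and 0.23 in these classes (1091, 3507 and 2789 genes). Both errors belong to the arrays and leave out the spread between cultures.

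The arrays lay on 1 slide and were read in 1 scan, and 61.9% and 60.6% of their 59305 non-control spots were well above background on the S180 and the DMSO array. Among 11 sets of cell type markers, the melanocyte set (Pmel, Mlana, Tyr, Tyrp1, Dct, Sox10, Mitf) was measured in full, 7 of 7, with signals of 4651 to 215584 with S180 and 5683 to 233546 with DMSO. Of the adipocyte set 4 of 10 were measured, at signals of up to 230 with S180 and 248 with DMSO, and the adipocyte hormone Adipoq and the fat-cell droplet proteins Plin1 and Cidec were not measured by this rule. Of the fibroblast set 6 of 8 were measured, with differences of -1.72 to -0.02. Its summed signal, not scaled between the arrays, was 1700 with S180 and 2896 with DMSO, of which Col1a2 alone gave 640 and 1378. The fibroblast set was the marker set with a measured gene 2-fold lower (1 gene, Lum). The measured genes of the epithelial set (-0.89 to -0.50, at signals of up to 47 with DMSO) and of the endothelial set (-0.25 to -0.15) were lower as well. Each of the other sets held measured genes above 0. The part of any of these sets in the lipid values was not tested.

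**Figure D1:**
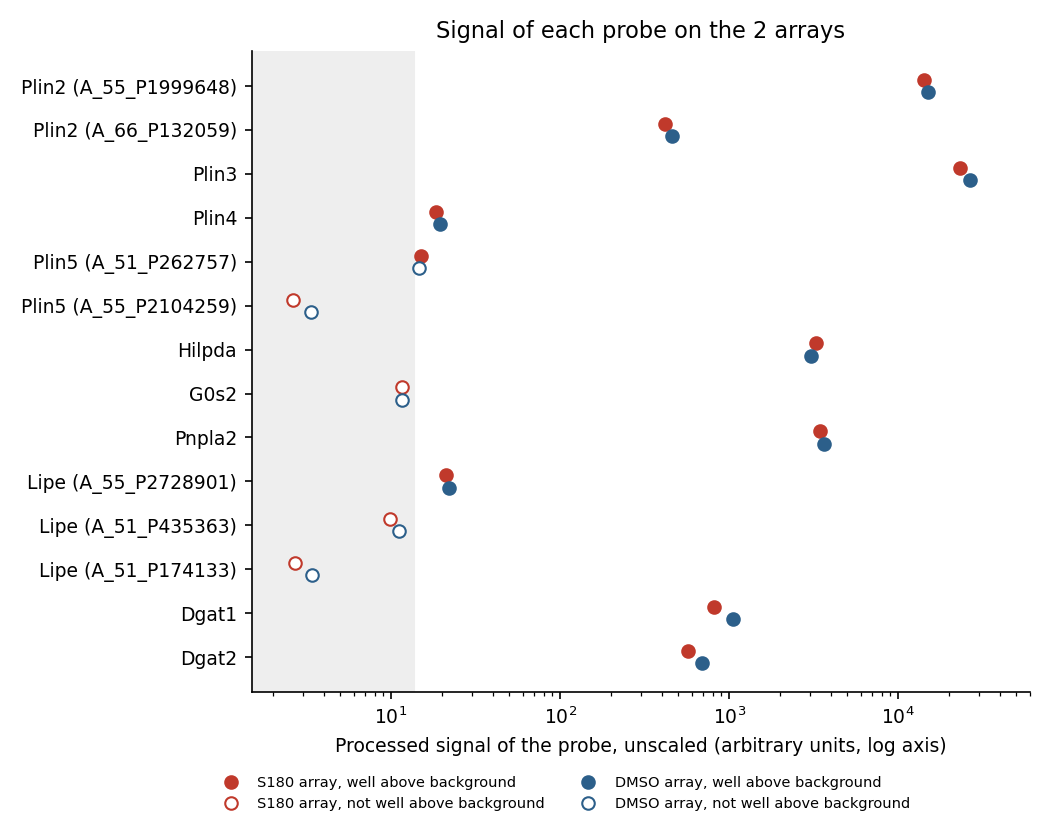
Unscaled processed signal (x axis, log scale, arbitrary units) of each of the 14 probes on the S180 and the DMSO array, filled where the spot was well above background. The grey area lies below 13.7, the lowest signal well above background on the DMSO array, and among the probes filled on both arrays the Hilpda probe is the one whose S180 point lies to the right of its DMSO point.

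None of the 8 measured members differed 2-fold between the arrays, and none differed 1.5-fold. The 8 measured members lay between -0.10 and 0.38, with a median of 0.19, where the median of all 20777 measured genes was 0.004 and their middle 50% ran from -0.14 to 0.16. Of the whole set of measured genes, the share with a 2-fold or greater difference was 0.582% toward S180 and 0.168% toward DMSO. A 1.5-fold difference was reached by 3.08% toward S180 and 1.71% toward DMSO. A count of 0 among 8 is close to these shares and is no result about these genes. Of the 8 members 6 lay above the median gene and 2, Dgat1 and Dgat2, below it. Of all measured genes 21.4% lay at or above the members' median, and 59.8% lay within the members' whole range. Before scaling, 7 of the 8 members had the lower signal on the S180 array and Hilpda had the higher. The directions given below are therefore relative to the bulk of the array, and apart from Hilpda and Dgat1 the members turned negative when the arrays were left unscaled or scaled on spike-in transcripts.

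**Figure D2:**
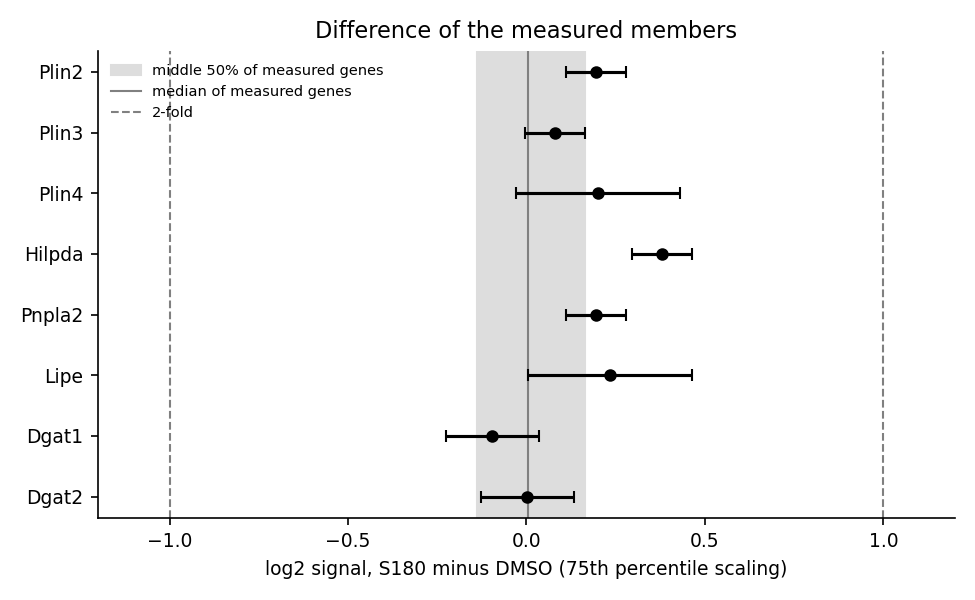
Log2 difference, S180 minus DMSO, of the 8 measured members (points), with bars of 1 SD between different probes of the same gene for genes of like brightness. The grey band is the middle 50% of all measured genes and the dashed lines mark 2-fold; Hilpda at 0.38 lies farthest from the median gene and all points lie well inside the dashed lines.

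The perilipins that were clearly detected, Plin2 and Plin3, differed little between the arrays. Plin2, the perilipin found on droplets of most cell types, gave a signal of 14214 with S180 and 15101 with DMSO with its brighter probe (chr4:86302847-86302906, mm9, as all probe positions here). After scaling, this was a difference of 0.19, or 1.14-fold higher in S180. The other Plin2 probe, at signals of 420 and 461, gave 0.15, or 1.11-fold. Both probes thus went the same way and differed from each other by less than the error between probes. The annotated position of the dimmer probe covers only 7 bases (chr4:86302469-86302475) for a probe of 60, so it is a weak check of the brighter one. Plin3, a perilipin that moves between the cytosol and new droplets, gave 23202 with S180 and 26668 with DMSO (chr17:56418429-56418488). Its difference of 0.08, or 1.06-fold, is within the SD of 0.084 between probes of bright genes. Plin2 exceeded Plin3 by 0.11 (SD 0.12 from the probes), which is within that error.

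Plin4 and Plin5, perilipins known mainly from adipose tissue, muscle, heart and liver, were at the edge of detection. They are neighbours on mouse chromosome 17 with no other protein-coding gene between them, and 7 protein-coding genes separate Plin5 from Plin3 (RefSeq, GRCm38.p6). The Plin4 probe (chr17:56240055-56240114) gave 18.5 with S180 and 19.6 with DMSO, a scaled difference of 0.20 with an SD of 0.23 between probes of dim genes. One Plin5 probe (chr17:56251101-56251160) gave 15.0 with S180 and 14.6 with DMSO, where it was not well above background. Its scaled difference was 0.32, or 1.25-fold higher in S180, from signals nearly equal before scaling. This value is no lower bound, and probes of dim genes had an SD of 0.23. The other Plin5 probe (chr17:56251025-56251084) was at 2.63 and 3.35, not well above background on either array. A difference in Plin4 or Plin5 of the size seen for Hilpda was not detectable at these signals.

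Hilpda had the largest difference of the measured members. Its probe (chr6:29225127-29225186) gave a signal of 3275 with S180 and 3056 with DMSO, which after scaling was 2.41 and 2.03 on the log2 scale. The difference of 0.38 was 1.30-fold higher in S180, and lay 9.16 times the SD between spots of a probe from 0. It also exceeded the SD of 0.084 between different probes of bright genes. Of all measured genes 1776, or 8.55%, lay at or above it, and 4.48% of the 6926 bright genes. There was a single Hilpda probe, so no other probe checks the value. On the spike-in scale it was 0.03, within the SD of 0.041 between the 8 spike-in transcripts.

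G0s2, the other small inhibitor of adipose triglyceride lipase, could not be compared. Its 60-base probe (chr1:195098925-195098984) gave 11.7 with S180 and 11.7 with DMSO, not well above background on either, and no fold is given. The probe is shown because the absence of a G0s2 value rests on it alone:

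G0s2 probe: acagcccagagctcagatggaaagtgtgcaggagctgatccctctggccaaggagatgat

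Because Hilpda is known as a HIF target, the bases before its starts were searched for the 5-letter cores of the hypoxia response element, ACGTG and GCGTG, on both strands, in the 250 bases before each annotated start (RefSeq, GRCm38.p6). Windows were given for 8 of the 10 members, 11 windows in all. Of all 32851 windows of this length 38.6% held at least 1 such core (ACGTG 16.6%, GCGTG 28.2%), and 6.58% held at least 3. Among the members' windows 6 of 11 held at least 1. Of the 2 Hilpda windows the upstream one (chr6:29272238-29272487) held none, and the downstream one (chr6:29272376-29272625), which overlaps it, held 3. These 3 sites are printed 5′ to 3′ on the gene's plus strand with 30 bases each, the core in capitals, which begins 111, 43 and 8 bases before the downstream start (chr6:29272503-29272532, chr6:29272571-29272600 and chr6:29272596-29272625):

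Hilpda site 111: caaccgcgagccGCGTGctttccgtgactc

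Hilpda site 43: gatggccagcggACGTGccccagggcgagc

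Hilpda site 8: cgagctcgtgcaggttcggtacGCGTGcgc

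The Plin2 window held 1 core, which reads as GCGTG on the opposite strand and begins 86 bases before the start (chr4:86670128-86670157, minus strand). It is shown beside those of Hilpda because Plin2 is the other member known as a HIF target:

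Plin2 site 86: ggttggggttccCACGCcctcatccccaat

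The windows of Pnpla2, Plin3 and Plin4 held no core, and those of G0s2 (1 window) and Plin5 (2 windows) held 1 each. The window of 1 Lipe start held 3 matches, of which a pair overlap in the palindrome CACGTG, a 6-letter sequence present in 6.02% of all windows. A match is a description of these letters, and Lipe, with as many matches as Hilpda, was near the limit of detection.

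The lipase gene Pnpla2 was clearly detected and Lipe was not. Pnpla2 (chr7:148645928-148645987) gave a signal of 3446 with S180 and 3659 with DMSO, a scaled difference of 0.19, or 1.14-fold higher in S180. This is 4.68 times the SD between spots and above the SD of 0.084 between probes. Of the bright genes 14.9% lay at or above it, so that a value of this size is common on these arrays. Lipe had 3 probes. The probe that stood for the gene (chr7:26167986-26168045), made to a testis complementary DNA clone, gave 21.2 with S180 and 21.9 with DMSO, a difference of 0.23 with an SD of 0.23 between probes of dim genes. The probe to the RefSeq transcript (chr7:26165828-26165887) gave 9.81 and 11.2, and the remaining one 2.71 and 3.40, none of these well above background. Whether Lipe counts as detected thus depends on the probe, and the RefSeq transcript's probe is shown for that reason:

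Lipe probe: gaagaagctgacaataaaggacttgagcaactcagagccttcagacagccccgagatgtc

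The acyltransferase genes lay at or just below the median gene. Dgat1, the enzyme linked to re-esterification of fatty acids in the endoplasmic reticulum, gave 812 with S180 and 1055 with DMSO. After scaling its difference was -0.10, or 1.07-fold lower in S180, within the SD of 0.13 between probes of genes of middle signal. It was the 1 measured member below the median gene in each of 11 settings, several of which only shift a whole array and cannot change this. Dgat2, which serves mainly newly made fatty acids, gave 570 with S180 and 692 with DMSO (chr7:106302215-106302274), a difference of 0.002. Of genes of middle signal 43.7% lay at or above Dgat2 and 61.5% at or above Dgat1. The 60 bases of the Dgat1 probe span 147 bases of the genome (chr15:76333128-76333274), so that its bases are not contiguous there:

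Dgat1 probe: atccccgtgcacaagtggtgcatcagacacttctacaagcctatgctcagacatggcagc

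Differences between genes on the same arrays do not depend on any single scaling factor. The ranges over settings given below therefore come only from settings that do more than shift a whole array, and a narrow range is no check of a gap. The pairs given here were chosen after their values were seen. Hilpda exceeded Pnpla2, the gene of the lipase its product inhibits, by 0.19 (SD 0.12 from the error between probes), with 0.18 to 0.19 over 9 scalings and corrections. Pnpla2 exceeded Dgat1 by 0.29 (SD 0.16; 0.27 to 0.29). Pnpla2 exceeded Mgll, which acts at the last step of the same breakdown, by 0.55 (SD 0.12; 0.53 to 0.58). The largest gap lay between the gene of sterol esterification, Soat1, and those of triglyceride esterification: Soat1 exceeded Dgat1 by 0.81 (SD 0.16; 0.79 to 0.81) and Dgat2 by 0.71 (0.69 to 0.71).

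Around the members, 8 overlapping lists held 100 further lipid genes, of which 78 were measured. Their median difference was 0.06, 1 of them reached 2-fold toward S180 and 2 toward DMSO, where the shares over all measured genes were 0.582% and 0.168%. The 1 toward S180 was at the threshold, and the count was 0 with quantile normalization, cyclic loess, normexp and other alternatives. A 1.5-fold difference was reached by 2 of the 78 toward S180 and 3 toward DMSO, beside 3.08% and 1.71% of all measured genes. Of the 17 triglyceride synthesis genes all were measured, none was 1.5-fold apart, 9 lay above the median gene and 8 below it, and the median was 0.02. The largest differences on this list were those of Agpat5, an acyltransferase of lysophosphatidic acid, at 0.22, and Agpat9 (Gpat3), which starts glycerolipid synthesis, at -0.22, the latter within the error of dim probes. Lpin1, a phosphatidate phosphatase and a known HIF target, was at 0.13 on its brightest probe, with 0.09 to 1.02 over 4 probes.

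Among genes of lipolysis and its regulators, 12 of 20 were measured, none was 1.5-fold apart and the median was 0.08. Hilpda had the largest difference and Mgll the next. Mgll gave signals of 11744 with S180 and 18237 with DMSO, 1.28-fold lower in S180 (-0.35), and its other probe gave -0.49. Abhd5, the activator of adipose triglyceride lipase, was measured on 3 probes, with differences of 0.03 to 0.14. Of the droplet coat and biogenesis genes 19 of 24 were measured, with a median of 0.06 and none 1.5-fold apart. Lpcat1, which remakes phosphatidylcholine at the droplet surface, was 0.49 on its brighter probe and 0.11 on the other. Pnpla1, a lipase relative known from skin, was at -0.48 with a signal of 22.9 and 38.8, and at 0.01 with normexp background correction.

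Genes that take up, bind or activate fatty acids had the highest list median, 0.17, with 19 of 25 measured and 14 above the median gene. Acsl4, which activates arachidonic acid and other polyunsaturated fatty acids, was 1.34-fold higher (0.42), with 0.42 to 0.54 over 3 probes. Fabp7, a fatty acid binding protein known as a HIF target, was 1.25-fold lower (-0.32), at signals of 377 and 574. The list of lipid genes known as HIF targets held 8 genes and is not a full set of such genes. Angptl4, at -1.06 and described below, was placed on the PPAR list only and is not in the counts that follow. Of the 8 genes 7 were measured, with a median of 0.13, 4 above the median gene and 3 below it. None of the 7 was 1.5-fold apart, and Hilpda was the highest of them.

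On the list of sterol ester turnover all 6 measured genes lay above the median gene, with a median of 0.12. Apart from Soat1, most of these differences were within or close to the SD between probes of genes of like brightness. Soat1, which esterifies cholesterol for storage in droplets, gave a signal of 4743 with S180 and 3524 with DMSO, 1.64-fold higher in S180 (0.71). Its 4 measured probes agreed within 0.61 to 0.74, and it was 0.35 on the spike-in scale. Of the lipase relatives 8 of 10 were measured. Pnpla6, a lysophospholipase known from neurons, was 1.73-fold lower (-0.79) at signals of 133 and 278 with a single probe in the dim class, where probes of a gene had an SD of 0.23. With normexp it was at -0.54, which ends its 1.5-fold call, and the list's median was 0.12.

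The PPAR target list went more than 1 way. Of its 16 measured genes 9 lay above the median gene and 7 below it, with a median of 0.04. Angptl4, an inhibitor of lipoprotein lipase, gave a signal of 808 with S180 and 2043 with DMSO, 2.08-fold lower in S180 (-1.06). This value rests on a single probe. Of the members on the same list, Hilpda and Plin2 lay on the other side at 0.38 and 0.19. Plin4 was at 0.20, within the SD of 0.23 between probes of dim genes. Plin2 and Plin4 turned negative without scaling (Plin2 -0.09, Plin4 -0.08).

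**Figure D3:**
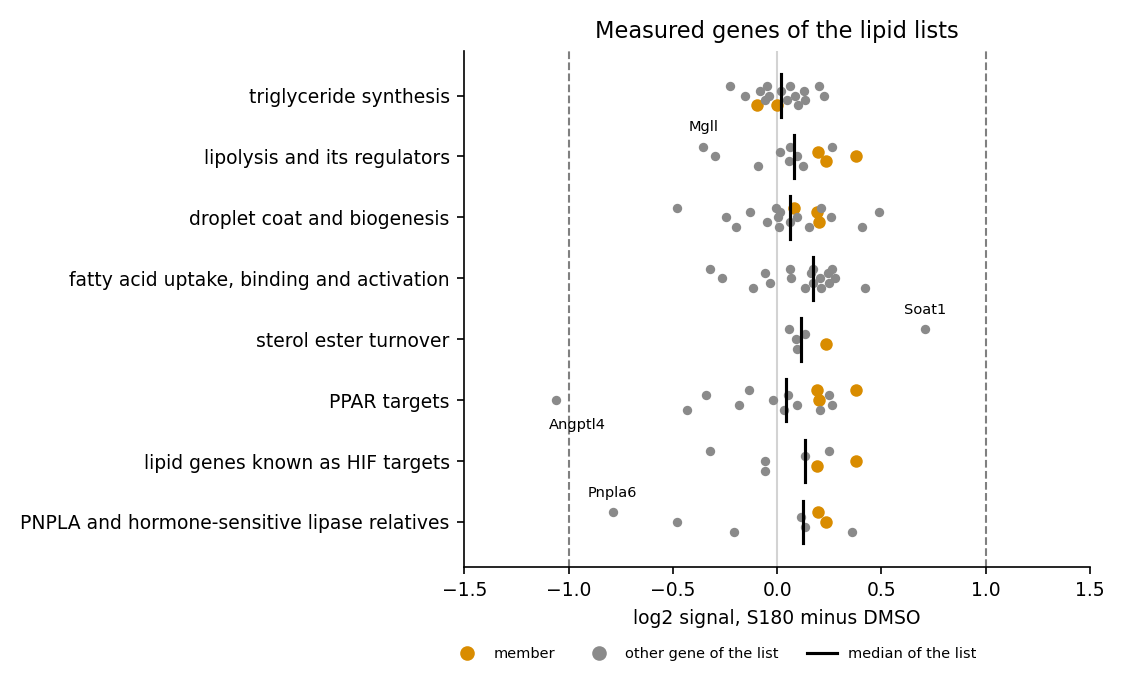
Log2 difference, S180 minus DMSO, of the measured genes of the 8 lipid lists (points; genes not reported here are left out of the points but not of the medians), with members in orange, list medians as black bars and dashed lines at 2-fold. The members cluster between -0.10 and 0.38, while Soat1 (0.71) lies far to the right and Angptl4 (-1.06) far to the left.

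How the arrays are made comparable shifted every member together. The median measured gene moved to -0.28 without scaling and to -0.35 with scaling on spike-in transcripts, and stayed between -0.02 and 0.03 under the other scalings. Relative to the median gene, Hilpda was at 0.33 to 0.41 over 11 settings, Pnpla2 at 0.15 to 0.22, Plin2 at 0.16 to 0.19 and Plin3 at 0.02 to 0.08. Plin4 was at 0.12 to 0.20 and Lipe at 0.17 to 0.23, neither above the SD of 0.23 between probes of dim genes. Dgat1 lay between -0.14 and -0.05, and Dgat2, between -0.03 and 0.04, was on either side. Settings that subtract a single constant from each array, such as no scaling and spike-in scaling, cannot change a value relative to the median gene. The deposited table nearly repeats quantile normalization. The number of settings is therefore no measure of how firm these values are.

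**Figure D4:**
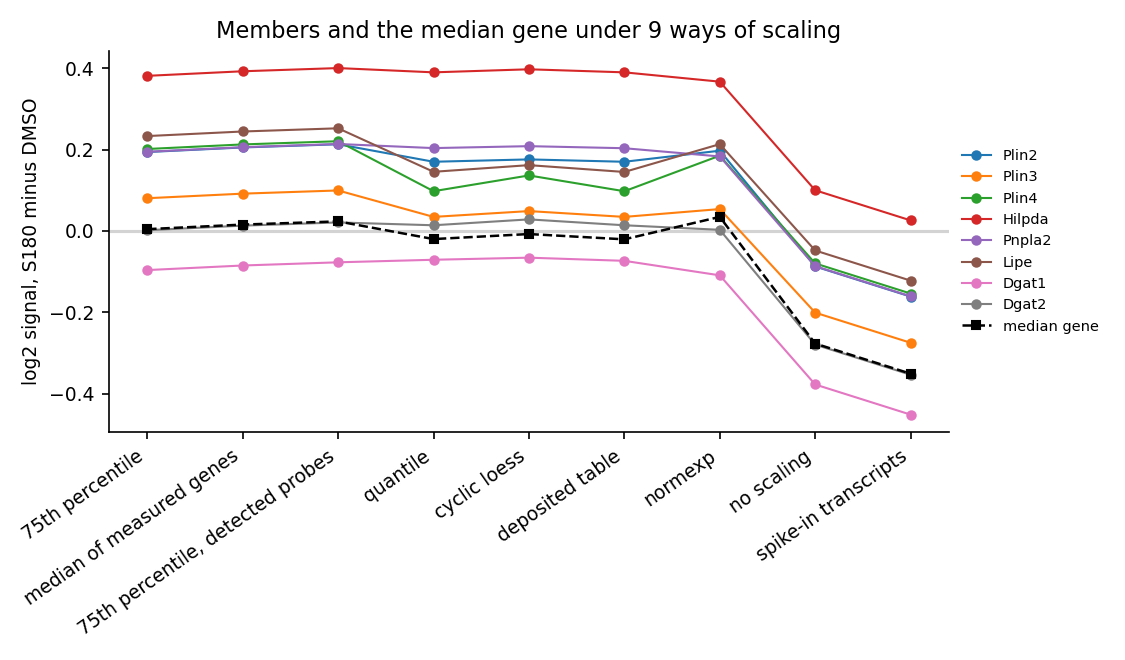
Log2 difference, S180 minus DMSO, of the 8 measured members and of the median measured gene (black squares, dashed) under 9 ways of scaling or correcting the arrays; lines join the same gene. Members and median gene drop together without scaling (median gene -0.28) and on the spike-in scale (-0.35), where Hilpda, at 0.10 and 0.03, is the member still above 0.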

How the data were processed

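Total RNA of the 2 samples was labelled with Cy3, per the labels' protocols, and grouped by the agent in the labels. The intensity values are those deposited from Agilent Feature Extraction 10.7.1.1, named in the file headers and the submitters' processing notes: processed signals were corrected for background and for trends across the array, per the file headers. How the deposited log2 value table was made is not stated in the labels or headers. Its S180 values lay within 0.01 of quantile-normalised log2 signals for 99.78% of 56745 probes and its DMSO values for 99.74%, with medians of 5.27. Each column followed its own array, which settled scale and direction, and the table was used as an alternative.

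Control spots and outlier-flagged spots (120 and 195) were left out, log2 signals were averaged per probe and each array's 75th percentile was subtracted. Genes carry the names in the files, and the brightest probe stands for a gene. Scripts (Python 3.11.15, limma 3.58.1) were tested on simulated data. Members and lists were chosen with earlier results of these data known, and no test was made with 1 array per group. All members were named, and from each list the genes at least 1.5-fold apart (up to 6) or, where fewer than 2 were, the 2 largest; Abhd5 and Lpin1 were added after their values were seen. Alternatives covered scaling, background correction (normexp, offset 50), probe choice, dim-probe filters and folds of 1.5 and 3. Exons and UTRs were not annotated here. Some list genes are counted but not reported here by name.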

Additional observations from a re-analysis of the deposited data

How the results depend on the processing

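No member reached 2-fold in any of the 14 alternatives. The members' median of 0.19 stayed between 0.12 and 0.21 in 9 of 11 alternatives and was -0.087 without scaling and -0.16 with spike-in scaling, where the median gene moved too. The count of list genes (members left out) at least 2-fold higher, 1, was 0 with quantile normalization, cyclic loess, no scaling, spike-in scaling, normexp, the deposited table, the mean over probes and a 3-fold threshold, 2 at 1.5-fold and 6 with no filter on dim probes. The 2 at least 2-fold lower became 1 with normexp, 1 with a minimum signal of 50 and 0 at 3-fold, and 3 without scaling, with spike-in scaling, at 1.5-fold and with no filter on dim probes. Signal over background limits Plin4, Plin5, Lipe and G0s2. No paired analysis was possible because each group holds 1 array.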

Other observations

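Of the 100 further lipid genes on the lists, 3 passed the background limit with S180 alone, 3 with DMSO alone and 16 with neither. The same shares over all genes are not given, so these counts are no result about the lists. On both arrays 20777 of all 37072 gene names passed, beside 78 of these 100. The genes named here were chosen after their values were seen. For the scaled folds given here, the signal that did not pass was set to its array's lowest signal well above background. Fitm1, which helps package triglyceride into droplets in muscle, gave a signal of 9.67 with S180 and 26.8 with DMSO, 1.68-fold higher in DMSO. Cyp4a14, a fatty acid hydroxylase and PPAR target, gave 18.6 and 6.72, 1.64-fold higher in S180. Plin1, the perilipin of fat cells, gave 15.0 and 11.7, 1.33-fold higher in S180. These folds are no lower bounds: a Plin5 probe failed with DMSO at 14.6, above that array's lowest passing signal of 13.7. All of these signals lie near the lowest signal well above background.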
